A study of Mus musculus with 12 samples.

Results

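Small nucleolar RNAs were followed in regenerating skeletal muscle of mice given amphiregulin or vehicle. The genes were taken by name: every transcript cluster (a group of probes for 1 gene) whose only gene symbol starts with Snora, Snord or Scarna, with the cluster of the highest mean over the 12 arrays where a gene had several. This gave 53 genes out of 19752 genes tested, from 56 clusters out of 24922. There were 20 Snora genes, 30 Snord genes and 3 Scarna genes. They were chosen by name, and clusters of 3 genes (Snora3, Snora21 and Snord58b) were selected on their mean log2 intensity over the 12 arrays. The family itself was picked with earlier results of these arrays known, so the values below describe it and are not independent evidence for it.

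Mice of the C57BL/6 strain, at an age of 8 weeks, had a shin muscle (tibialis anterior, TA) injured on day 0 with cardiotoxin, a snake venom toxin that destroys muscle fibres. All mice received diphtheria toxin every other day, and either amphiregulin (AREG, a growth factor that activates the EGF receptor) or the vehicle, phosphate-buffered saline (PBS), was given into the muscle on day 0 and then into the peritoneum every other day. The day and the genotype differed together: muscles taken on day 4 came from Foxp3-DTR- mice, which keep their regulatory T cells under diphtheria toxin, and muscles taken on day 8 came from Foxp3-DTR+ mice, in which cells that express Foxp3 carry the diphtheria toxin receptor and are killed by the toxin. Each of the 4 groups (day 4 Foxp3-DTR- with PBS or AREG, day 8 Foxp3-DTR+ with PBS or AREG) had 3 Affymetrix Mouse Gene 1.0 ST arrays of whole-muscle RNA. Day and genotype therefore cannot be told apart in any comparison of day 8 with day 4. No label states whether the arrays of a group came from separate animals, so p-values measure only the spread between these samples. The design asks what amphiregulin does in injured muscle with and without regulatory T cells.

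Small nucleolar RNAs are short, stable RNAs that guide the chemical modification of other RNAs in the nucleus. Box C/D members (Snord) guide methylation of ribosomal RNA and box H/ACA members (Snora) guide its conversion of uridine to pseudouridine, each in a complex with its own set of core proteins, and a few members are needed for the cutting of the ribosomal RNA precursor instead. Small Cajal body RNAs (Scarna) do the same for the RNAs of the spliceosome. Most mammalian members are not transcribed on their own but are cut out of introns of a host gene, often a ribosomal protein gene, a translation factor gene or a long noncoding RNA gene whose spliced transcript is short-lived.

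By position, 52 of the 53 genes lay inside the span of another gene of the RefSeq table (strand was not used), and these 43 host genes were 31 protein-coding and 12 long noncoding genes. Ribosomal protein genes, taken by the symbols Rpl, Rps and Rpsa, made up 16 of the hosts and held 20 of the small RNAs. Snord118, known as a gene with a promoter of its own, lay in no other gene. Of the hosts, 9 held 2 of the small RNAs each, so the members of each such pair lie within the span of 1 gene. The starts of 8 of these 9 hosts are shown because both members of a pair can be set beside the start of 1 containing gene, and because many host genes are known to begin transcription inside a run of pyrimidines. Each run covers 40 bases before and 10 bases from the RefSeq start (GRCm38.p6, 5′ to 3′ on the strand of the host), with capitals marking any unbroken run of at least 6 C or T that reaches within 10 bases of the start.
Rack1 (Snord95 and Snord96a), chr11:48800320-48800369, plus strand: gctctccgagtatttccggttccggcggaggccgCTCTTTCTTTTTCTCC
2410006H16Rik (Snord49a and Snord49b), chr11:62602837-62602886, plus strand: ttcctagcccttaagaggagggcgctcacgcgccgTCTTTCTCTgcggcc
Snhg12 (Snora16a and Snora44), chr4:132308638-132308687, plus strand: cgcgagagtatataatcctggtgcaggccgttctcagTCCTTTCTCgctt
Rpl13a (Snord33 and Snord35a), chr7:45128736-45128785, minus strand: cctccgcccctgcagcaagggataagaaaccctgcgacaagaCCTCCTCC
Ncl (Snora75 and Snord82), chr1:86359446-86359495, minus strand: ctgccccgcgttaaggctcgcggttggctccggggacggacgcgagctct
Rps3 (Snord15a and Snord15b), chr7:99483700-99483749, minus strand: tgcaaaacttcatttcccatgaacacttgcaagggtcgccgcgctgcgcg
Rps3a1 (Snord73a and Snord73b), chr3:86142659-86142708, minus strand: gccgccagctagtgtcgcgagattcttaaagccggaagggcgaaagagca
Snhg3 (Snora73a and Snora73b), chr4:132353677-132353726, minus strand: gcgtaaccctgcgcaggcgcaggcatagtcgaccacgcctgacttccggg

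A run of this kind, searched on the strand of the gene, was present in 4 of these 8 starts (Rack1, 2410006H16Rik, Snhg12 and Rpl13a). Over the 32 hosts with an entry in the promoter table it was present in 15, or 46.9%, against 23.0% of all 27025 genes of the table. Of the ribosomal protein hosts, 4 of 11 held it (36.4%). These are matches of letters and say nothing of where transcription began in this muscle.

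The 12 arrays had 24922 clusters each, and their distributions were nearly equal except that day 4 AREG replicate 1 and day 4 PBS replicate 1 were narrower (interquartile range over all genes 2.07 and 2.27 on the log2 scale, against 2.39 to 2.61 on the other 10). All 5 skeletal muscle markers (Ckm, Acta1, Myh4, Tnnt3 and Mb) were at or above the median gene level. Foxp3, the gene whose cells the toxin kills in Foxp3-DTR+ mice, read 6.49 to 6.75 on all 12 arrays, below the median gene level of 7.15, with a log2 change of -0.02 between the PBS groups (day 8 Foxp3-DTR+ minus day 4 Foxp3-DTR-, adjusted p = 0.955 with limma). Il2ra and Ctla4, which regulatory and other activated T cells make, rose in that comparison (0.99 and 0.61, limma adjusted p = 0.000162 and 0.0128), so these arrays do not show the loss of regulatory T cells that the genotype stands for. All 8 macrophage markers had lower means with AREG in both settings. Their summed intensity was 10206 to 13022 (day 4 PBS), 4628 to 6396 (day 4 AREG), 8997 to 12268 (day 8 PBS) and 3986 to 10404 (day 8 AREG), and none was at 0. The 5 regenerating-fibre markers (such as Myh3 and Myog) also had lower means with AREG in both settings. All 4 T cell markers had higher means on day 8 in Foxp3-DTR+ mice than on day 4 in the PBS groups (median 1.55). In whole tissue, fewer cells of a type and less RNA per cell cannot be told apart, and the part of these shifts in the results below was not tested.

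Levels of the small RNAs on the log2 intensity scale, as means over 12 arrays, ran from 3.38 for Snord58b to 12.19 for Snora52, and 31 of 53 were at or above the median gene. The 6 with the highest means were Snora52 (12.19), Snord57 (11.75), Snord104 (10.51), Snora3 (10.33), Snord82 (10.23) and Snord49b (10.20). The 3 with the lowest were Snord58b (3.38), Snord61 (4.60) and Snord38a (4.93). These means rank probe signals and not amounts of RNA, since probe sets of different genes are not calibrated to each other.

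Amphiregulin against PBS on day 8, in Foxp3-DTR+ mice, went with higher small nucleolar RNA signal, though no single gene passed the test. The mean was higher with AREG for 47 of 53 (88.7%), where 51.2% of all genes were higher, and the median log2 change was 0.50 (1.42-fold) against 0.01 over all genes. No single member passed the test across all genes (limma, Benjamini-Hochberg adjusted p under 0.05, smallest adjusted p = 0.599), and this test called 0.00506% of all genes, which is 1 gene. With array quality weights, which let arrays of poorer fit count less, the test called 21 members (39.6%), all higher, and 1192 of all 19752 genes (6.03%). At an unadjusted p under 0.05, limma had 24 members higher and 1 lower, where 2.05% of all genes were higher and 5.57% lower. A log2 rise of at least 0.5 was seen for 28 members (52.8% of them) and for 74 genes in all (0.375%). Small nucleolar RNAs were thus 37.8% of those 74 genes, and falls of that size were not counted. For 12 members every AREG array was above every PBS array, a separation seen for 7.06% of all genes, and for Snord96a every AREG array was below, as for 7.14%.

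**Figure D1:**
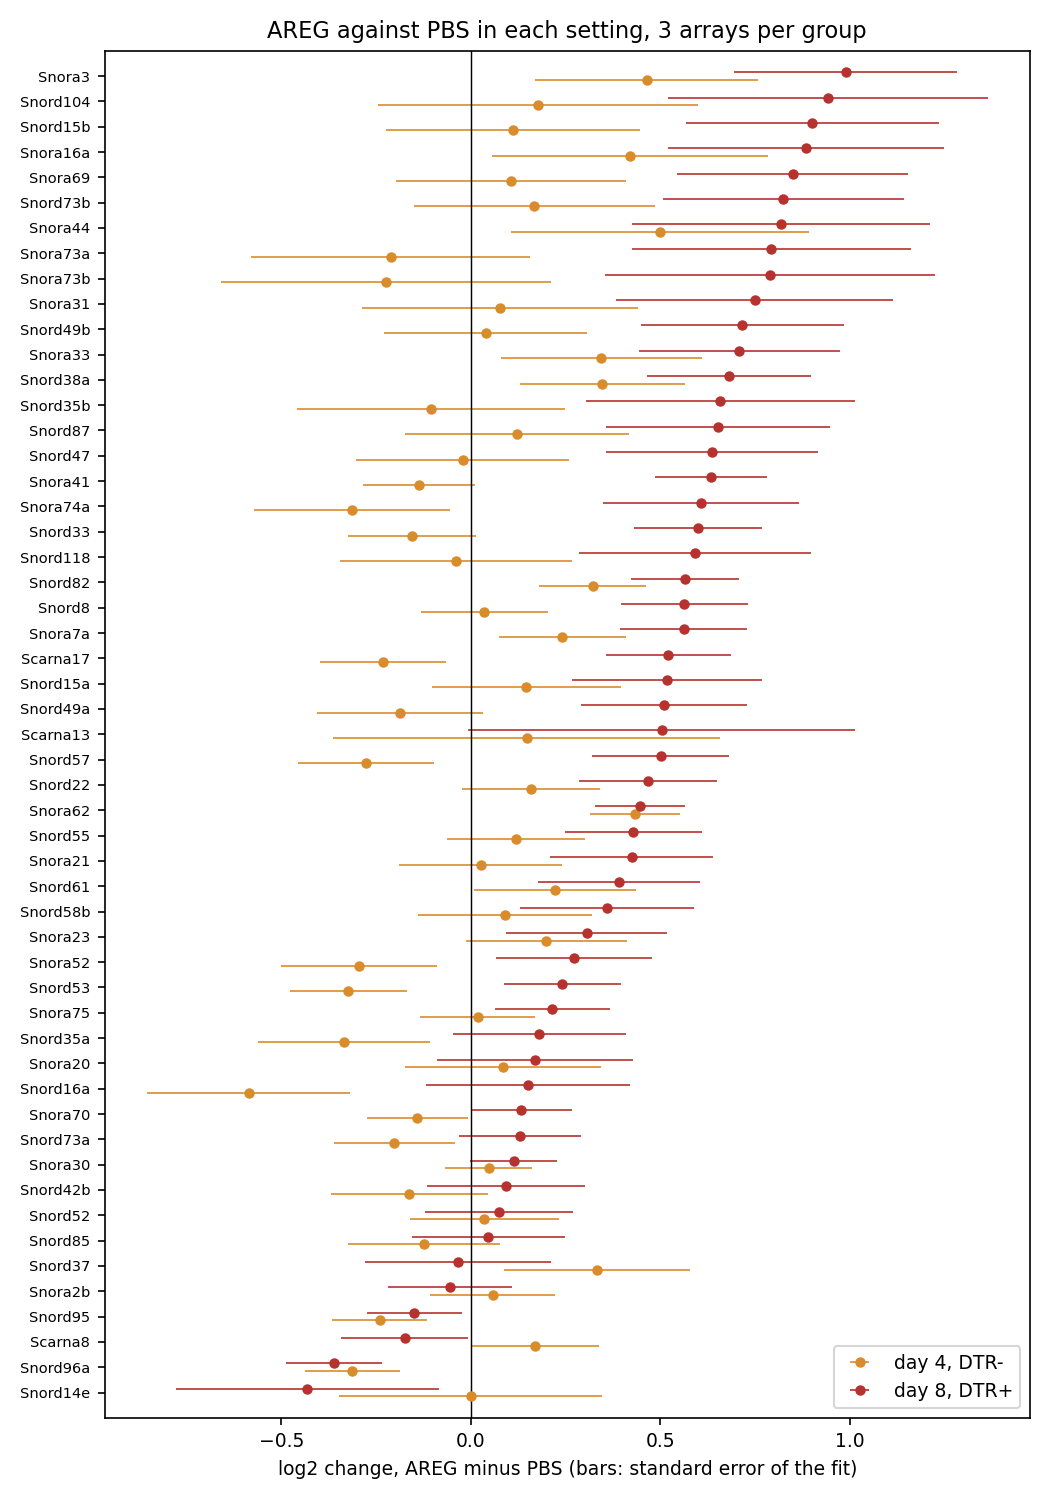
Log2 change of AREG against PBS for each of the 53 small nucleolar RNA genes (rows, ordered by the day 8 value), on day 4 in Foxp3-DTR- mice (orange) and on day 8 in Foxp3-DTR+ mice (red), with the standard error of the fit as bars and 3 arrays per group. At day 8, 47 points lie right of the zero line and 6 left, at day 4 the split is 31 and 22.

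Both main families showed it. Of the 20 box H/ACA genes 19 were higher with AREG at day 8 (median log2 change 0.58), of the 30 box C/D genes 26 were (median 0.49), and of the 3 Cajal body RNAs 2 were. By level, 30 of the 31 at or above the median gene level were higher (median 0.59), against 17 of the 22 below it (median 0.19), a split that was not tested. Among the 9069 genes whose level lay between the quartiles of the members' levels (6.47 to 8.80), 42.5% were higher and the median log2 change was -0.03.

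Among the box H/ACA genes, Snora3, which lies in the ribosomal protein gene Rpl27a, had the largest change. It read 9.29, 10.94 and 9.97 on the day 8 PBS arrays and 11.17, 10.97 and 11.03 on the day 8 AREG arrays. The AREG arrays were close together and all above PBS, but PBS replicate 2 came close to the lowest of them, and the change was 0.99 (SE 0.29, 1.99-fold, limma adjusted p = 0.599). Snora41, in the elongation factor gene Eef1b2, had the smallest p of the family at day 8: it read 5.30, 5.84 and 5.59 with PBS and 6.21, 6.20 and 6.22 with AREG. The AREG arrays stood close together above all PBS arrays, and the change was 0.63 (SE 0.15, limma adjusted p = 0.599).

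Snora31, in the gene of the translationally controlled tumour protein Tpt1, read 7.35, 8.12 and 7.17 with PBS and 8.37, 8.32 and 8.19 with AREG at day 8, again without overlap (change 0.75, SE 0.37). Snora74a, in the long noncoding host Snhg4, read 7.84, 8.47 and 8.59 with PBS and 8.80, 8.73 and 9.18 with AREG (change 0.61, SE 0.26). Snora7a, in Rpl32, read 9.43, 10.12 and 9.55 with PBS and 10.34, 10.21 and 10.24 with AREG (change 0.56, SE 0.17). In each of these 3, PBS stayed below AREG on all arrays. Snora52, the member with the strongest signal, read 11.40, 12.32 and 12.31 with PBS and 12.54, 12.18 and 12.12 with AREG, so that its groups overlapped (change 0.27, SE 0.21) and PBS replicate 1 was below all 5 other day 8 arrays.

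Among the box C/D genes, Snord104, in the noncoding gene Gm36220, had the largest change at day 8. It read 9.28, 11.38 and 10.18 with PBS and 11.38, 11.37 and 10.92 with AREG, and PBS replicate 2 was as high as the AREG arrays (change 0.94, SE 0.42). Snord33, in Rpl13a, whose box C/D RNAs are known from work on lipotoxic stress, read 7.55, 8.19 and 7.94 with PBS and 8.49, 8.29 and 8.70 with AREG, without overlap (change 0.60, SE 0.17). Snord38a read 4.57, 5.26 and 4.94 with PBS and 5.52, 5.61 and 5.69 with AREG, also without overlap (change 0.68, SE 0.22), at one of the dimmest levels of the family. Snord73b, in Rps3a1, read 8.19, 9.41 and 8.54 with PBS and 9.81, 9.31 and 9.49 with AREG (change 0.83, SE 0.32). Its groups overlapped, since PBS replicate 2 was above the lowest AREG array.

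Snord57 lies in Nop56, which encodes a core protein of the box C/D particle itself. It read 11.21, 12.01 and 11.82 with PBS and 12.49, 11.98 and 12.08 with AREG at day 8 (change 0.50, SE 0.18), with overlap at PBS replicate 2. Snord47, in the noncoding gene Gas5, had a change of 0.64 (SE 0.28), and Snord8, in Gm26590, one of 0.56 (SE 0.17), both with groups that overlapped at PBS replicate 2. Snord8 read 7.33, 8.20 and 7.59 with PBS and 8.40, 8.21 and 8.19 with AREG at day 8, while its 6 day 4 arrays all lay between 7.62 and 7.74. Snord49a and Snord49b, which share the host 2410006H16Rik, had changes of 0.51 (SE 0.22) and 0.72 (SE 0.27). None of these passed the test across all genes at day 8, with limma adjusted p between 0.599 and 0.646.

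The Cajal body RNA Scarna17, a guide for spliceosomal RNA, read 8.95, 9.47 and 9.62 with PBS and 9.84, 9.75 and 10.02 with AREG at day 8, without overlap (change 0.52, SE 0.17). The other 2 Cajal body RNAs were named after their values were seen. Scarna13 had a similar change (0.50) with a far wider spread, since its PBS arrays read 8.39, 11.24 and 8.72. Scarna8 was lower with AREG (-0.17). Snord118, the box C/D gene outside any host, known as U8 and needed for cutting the precursor of large-subunit ribosomal RNA, is named for that place. It read 8.16, 9.07 and 8.68 with PBS and 9.82, 9.07 and 8.81 with AREG, so that its groups overlapped (change 0.59, SE 0.31).

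The 6 members that were lower with AREG at day 8 were Snord14e (-0.43), Snord96a (-0.36), Scarna8 (-0.17), Snord95 (-0.15), Snora2b (-0.05) and Snord37 (-0.03), of which Snora2b and Scarna8 were named after their values were seen. All but Scarna8 and Snora2b are box C/D genes, and none passed the test. Snord14e belongs to the group of box C/D RNAs that take part in cutting the precursor of small-subunit ribosomal RNA, and it lies in the chaperone gene Hspa8. It read 9.55, 9.47 and 8.06 with PBS and 8.86, 8.37 and 8.56 with AREG, so that PBS replicate 3 was below all AREG arrays while the other PBS arrays were above them. Snord96a and Snord95 share the host Rack1, which encodes a protein of the small ribosomal subunit. Snord96a read 6.28, 6.16 and 5.97 with PBS and 5.90, 5.86 and 5.57 with AREG, without overlap (change -0.36, SE 0.13, limma adjusted p = 0.622).

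The day 8 PBS arrays differed widely from each other in these genes. Taking each member's deviation from its own 12-array mean, the array medians were -0.48, 0.33 and -0.06 for day 8 PBS replicates 1, 2 and 3, with 6, 43 and 20 of 53 members above their mean. The day 8 AREG arrays had medians of 0.46, 0.30 and 0.35, with 51, 44 and 46 members above their mean. PBS replicate 2 therefore lay within the range of the AREG arrays, and replicate 1 far below it. The day 8 median change was 0.31 without PBS replicate 1 and 0.68 without PBS replicate 2, and 79.2% to 88.7% of members were higher when any 1 of the 12 arrays was left out, with no member called in any of these 12 fits.

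**Figure D2:**
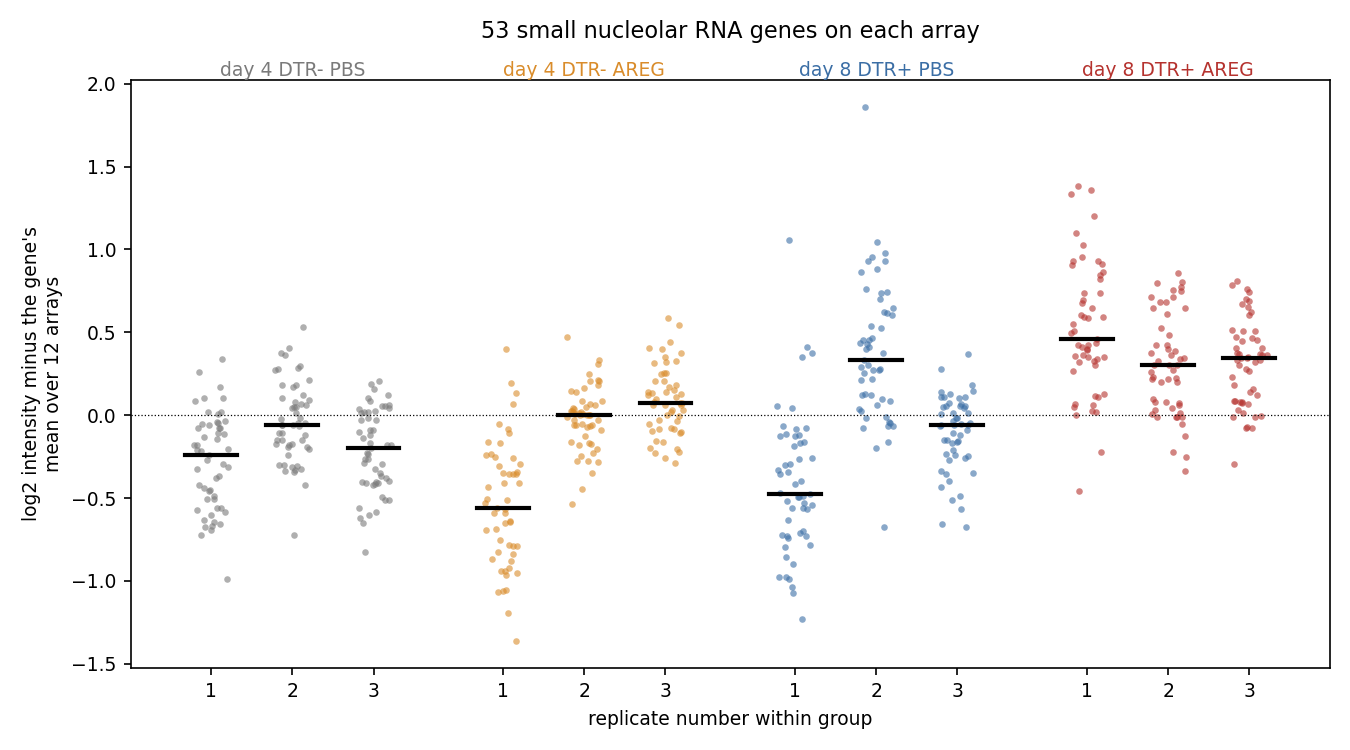
Log2 intensity of each of the 53 small nucleolar RNA genes minus that gene's mean over the 12 arrays, by array and group, with a bar at the array's median. The day 8 AREG medians lie between 0.30 and 0.46, the day 8 PBS medians between -0.48 and 0.33.

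On day 4, in Foxp3-DTR- mice, the small RNAs had the same median change as all genes. Higher means were seen for 31 of 53 (58.5%), as for 59.1% of all genes, with a median log2 change of 0.04 for the members and 0.04 for all genes. No member passed the test (limma, smallest adjusted p = 0.0627), where 2.9% of all genes did. With array quality weights 14 members were called higher and 1 lower, which is 28.3% of the members beside 26.9% of all genes. With quantile normalization repeated 1 member was called (1.89%), beside 4.21% of all genes. At an unadjusted p under 0.05 limma had 2 members higher and 2 lower, where 7.3% of all genes were higher and 9.73% lower. AREG arrays were all above PBS for 2 members (10.2% of all genes) and all below for 2 (12%).

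The 2 that separated upwards on day 4 were Snora62 and Snord82. Snora62, in Rpsa, which encodes a ribosomal protein also known as a laminin receptor, read 6.47, 6.58 and 6.40 with PBS and 6.98, 6.87 and 6.90 with AREG. Every AREG array was above every PBS array (change 0.43, SE 0.12, limma adjusted p = 0.0627). Snord82, in the nucleolin gene Ncl, read 10.11, 9.89 and 9.88 with PBS and 10.18, 10.31 and 10.36 with AREG, with a gap of less than 0.1 between the groups (change 0.32, SE 0.14, limma adjusted p = 0.254). Of the 2 that separated downwards, Snord57 read 11.71, 11.70 and 11.74 with PBS and 11.41, 11.31 and 11.60 with AREG (change -0.28, SE 0.18). Snord96a read 5.88, 6.04 and 5.90 with PBS and 5.51, 5.60 and 5.77 with AREG (change -0.31, SE 0.13). Snord57 went the opposite way at day 8, whereas Snord96a was lower with AREG in both settings.

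Snord16a, in Rpl4, had the lowest change on day 4 at -0.59 (SE 0.27): it read 7.76, 8.04 and 7.86 with PBS and 6.61, 7.85 and 7.45 with AREG. AREG replicate 1 was far below the other 2. That array was low for the family, with a median deviation of -0.56 and only 4 of 53 members above their own mean, against 0.00 and 0.08 on AREG replicates 2 and 3. It was also the array with the narrowest distribution. Without it, the day 4 median change of the members was 0.18 with 73.6% of members higher, and without AREG replicate 3 it was -0.08 with 28.3% higher.

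The AREG effects on day 4 and day 8 share no array. Across the 53 genes their log2 changes had a Pearson r of 0.35 and a Spearman rho of 0.34, given as a description, since genes are not independent replicates. Both were positive for 28 genes and both negative for 3, and 19 were lower on day 4 and higher on day 8. The day 8 change was the larger for 48 of 53 (90.6%), against 47.2% of all genes, with a median difference of 0.37 against -0.01 over all genes. This was not particular to the family. The day 8 change was also the larger for 58 of 59 cytosolic ribosomal protein genes (median difference 0.30) and 18 of 24 host genes (0.16). The same was seen for 8 of 9 other small structured RNAs (0.70) and for 166 of 288 microRNA genes (0.05). No member passed the test of that difference (limma, smallest adjusted p = 0.579, for Snora41), and neither did any gene (0% of all genes called). At an unadjusted p under 0.05 limma had 8 members with a larger change at day 8 and none with a smaller one, where 1.78% of all genes had a larger one. Without day 8 PBS replicate 2 the median difference was 0.70, and without day 8 PBS replicate 1 it was 0.21. With array quality weights 4 members were called (7.55%), all with the larger change at day 8, beside 11.3% of all genes.

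Averaged over both settings, 2 members rose with AREG, Snora62 and Snord82, and none fell (limma, adjusted p under 0.05), where 0.415% of all genes rose and 2.99% fell. Snora62 at day 8 read 6.39, 6.74 and 6.80 with PBS and 7.14, 7.04 and 7.09 with AREG, without overlap, as on day 4. Its mean change was 0.44 (SE 0.08, 1.36-fold, limma adjusted p = 0.0193), with 6 of 6 AREG arrays above all PBS arrays of their day. Snord82 at day 8 read 9.93, 10.07 and 10.16 with PBS and 10.65, 10.31 and 10.90 with AREG, also without overlap, and its mean change was 0.44 (SE 0.10, limma adjusted p = 0.0294). Over the family, 41 of 53 mean changes were positive (77.4%), against 58% of all genes, and the median was 0.25, against 0.03 over all genes. At an unadjusted p under 0.05 limma had 15 members higher and 2 lower, where 6.27% of all genes were higher and 11.7% lower.

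**Figure D3:**
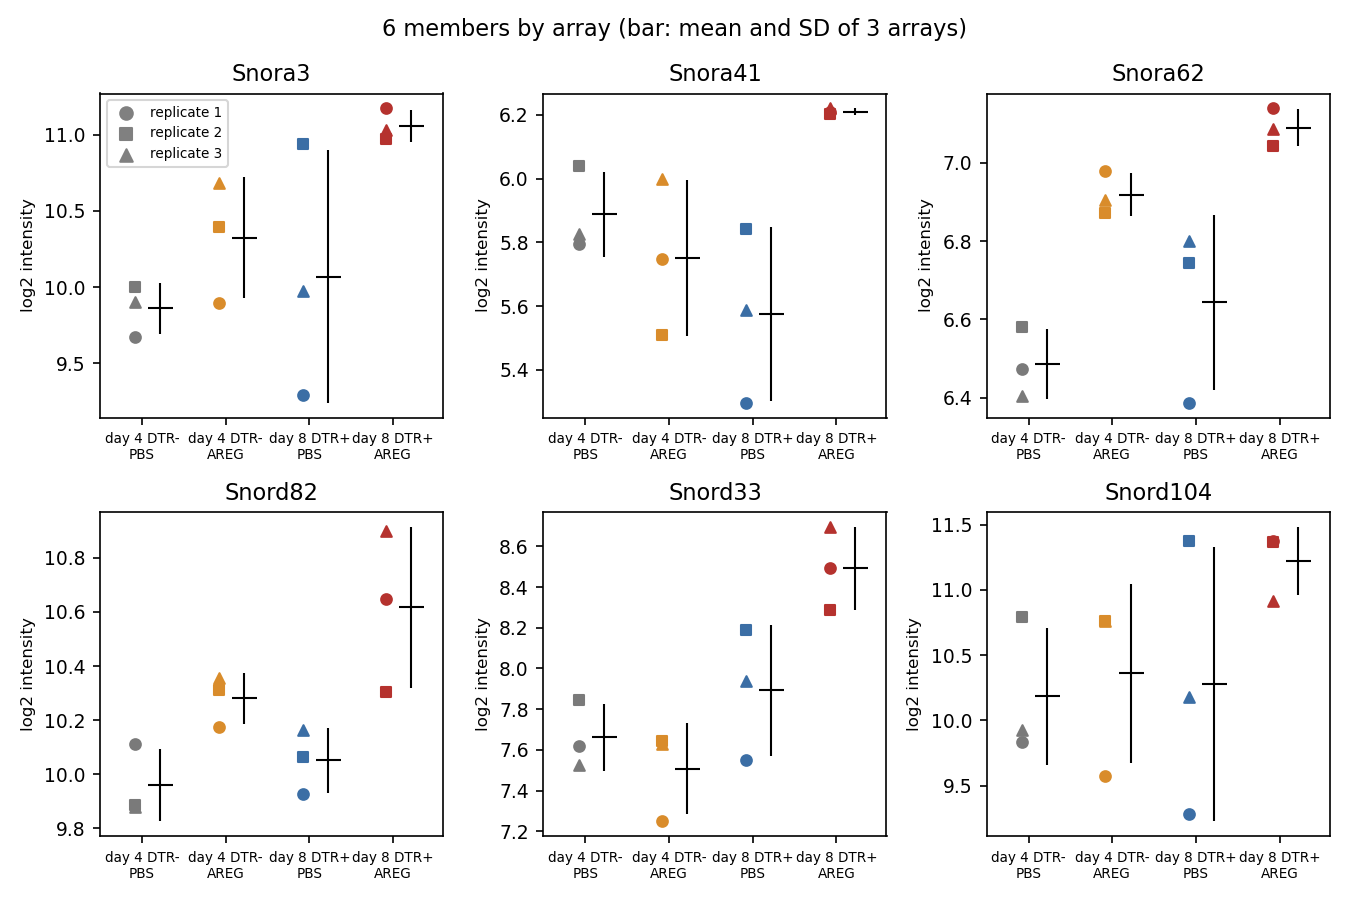
Log2 intensity of 6 small nucleolar RNA genes on each of the 12 arrays, by group, with the mean and SD of 3 arrays beside the points and the replicate number as the symbol. Snora62 and Snord82 have all AREG arrays above all PBS arrays on both days, and Snora3, Snora41 and Snord33 do so on day 8 only.

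These calls rest on narrow margins. Leaving out any 1 of day 4 AREG replicate 1, day 4 PBS replicate 2 or day 8 PBS replicate 1 took Snora62 to an adjusted p of 0.0516 to 0.0608 and left 0 members called. Snord82 was lost in 7 of the 12 fits that left out 1 array, with an adjusted p of up to 0.101, and leaving out day 8 PBS replicate 2 raised the number called to 14 (26.4%, beside 3.18% of all genes). With array quality weights it was 27 (25 higher and 2 lower), or 50.9% of the members beside 24.8% of all genes. With the replicate number as a block, limma called 5.59% of all genes for the mean effect, beside 3.41% without it, and 5 members (9.43%): Snora62 (adjusted p = 0.0200), Snord82 (0.0251), Snora3 (0.0475) and Snord38a (0.0234) higher, and Snord96a (0.0287) lower.

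Between the settings, no member was called in the PBS groups, and the direction of the family depended on 1 array. Day 8 Foxp3-DTR+ was higher than day 4 Foxp3-DTR- for 36 of 53 (67.9%), against 41.3% of all genes, with a median log2 change of 0.12 against -0.04 over all genes. No member passed the test (limma, smallest adjusted p = 0.294) where 2.34% of all genes did, and 2 members (Snord14e and Snord38a, both higher) had an unadjusted p under 0.05 with limma, where 6.2% of all genes did in that direction. For no member were the groups apart, a separation seen for 9.17% of all genes upwards and 14.2% downwards. The median was -0.11 without day 8 PBS replicate 2 and 0.31 without day 8 PBS replicate 1. Snord14e had the largest change, 0.85 (SE 0.35, limma adjusted p = 0.294), and passed the test (1.34, adjusted p = 0.0311) when day 8 PBS replicate 3 was left out.

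In the AREG groups, which share their day 8 arrays with the day 8 comparison above, 50 of 53 members were higher on day 8 in Foxp3-DTR+ than on day 4 in Foxp3-DTR-. The median log2 change was 0.53, against -0.06 over all genes, of which 34.8% were higher. For 27 members all day 8 arrays were above all day 4 arrays, a separation seen for 4.2% of all genes. At an unadjusted p under 0.05 limma had 26 members higher and 1 (Scarna8) lower, where 3.97% of all genes were higher and 6.29% lower. Snord33 alone rose by the adjusted test, which called 0.719% of all genes (0.527% higher). With array quality weights 18 members were called higher and 4 lower (41.5% of the members, beside 33.8% of all genes), and the median change was 0.21.

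Snord33 read 7.25, 7.64 and 7.63 on the day 4 AREG arrays and 8.49, 8.29 and 8.70 on the day 8 AREG arrays, with a gap of more than 0.6 between the groups. The change was 0.98 (SE 0.17, 1.98-fold, limma adjusted p = 0.00929). It was not called without day 4 AREG replicate 1 (0.85, limma adjusted p = 0.0643). With the replicate number as a block Snord38a was called beside it (limma adjusted p = 0.0255), with 0.957% of all genes called. In a comparison between days, that block takes the spread between replicates out of the error. Its p there does not measure the spread between samples and is no further evidence for these calls. In the PBS groups the change of Snord33 was 0.23 (SE 0.17), and the difference between these changes, which is the same test as the difference of the AREG effects, was 0.75 (SE 0.24, limma adjusted p = 0.630).

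The largest change between the AREG groups was that of Snord73b, at 1.16 (SE 0.32, 2.24-fold, limma adjusted p = 0.147): it read 7.52, 8.69 and 8.91 on day 4 and 9.81, 9.31 and 9.49 on day 8. Snord47 read 7.45, 8.33 and 8.60 on day 4 and 9.42, 9.03 and 9.13 on day 8 (change 1.07, SE 0.28, limma adjusted p = 0.124). Both were apart on all arrays, with day 4 AREG replicate 1 the lowest in each. Without that array the median change of the family was 0.30 with 86.8% of members higher. Scarna8 (-0.42), Snord95 (-0.08) and Snora20 (-0.01) were the 3 members with lower means on day 8, with Snora20 named after its values were seen.

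The host genes as a group had changes near those of all genes at day 8. A cluster of its own was present for 24 hosts of 27 members. The median log2 change of these hosts with AREG at day 8 was 0.03 (range -0.39 to 0.31, 15 of 24 higher, none called), against 0.31 for their 27 members, and 24 of the 27 members had a larger change than their host. Rpl27a had a change of 0.06 where Snora3 within it had 0.99. Rps3 had a change of -0.25 where its Snord15b, named after its values were seen, had 0.90. Across the 27 pairs the changes of member and host had a Pearson r of 0.29 and a Spearman rho of 0.33, as a description over genes that share arrays. A larger change of the member was not particular to AREG at day 8. It was seen in 21 of the 27 pairs with AREG at day 4 and in 21 between the PBS groups. The count was 22 between the AREG groups, 23 for the mean AREG effect and 14 for the difference of the AREG effects. Without strand in the gene table, a host is here the gene that contains the small RNA.

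**Figure D4:**
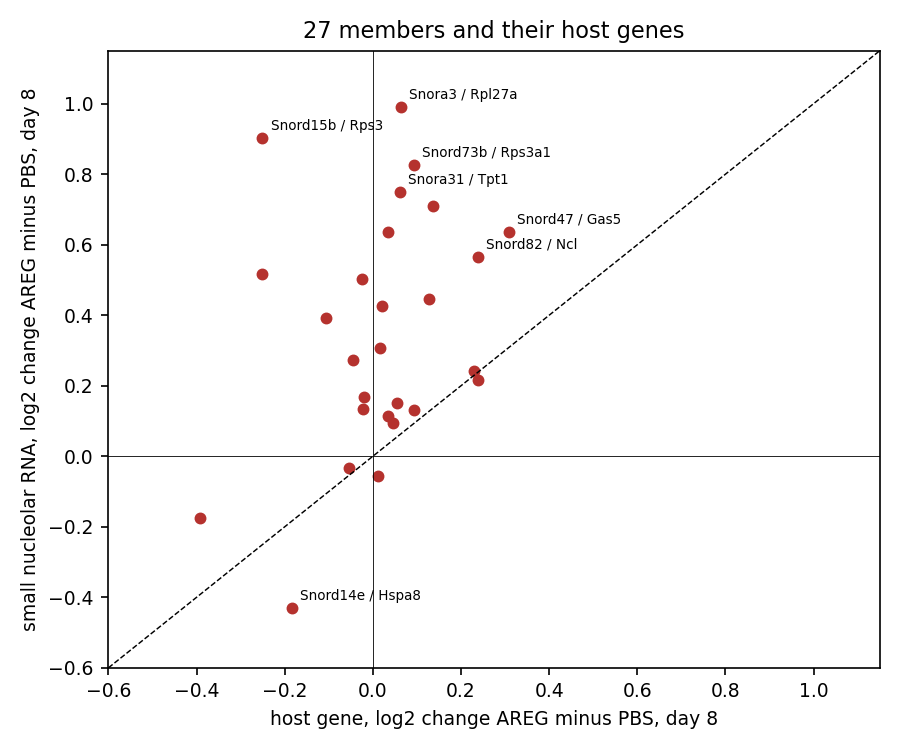
Log2 change of AREG against PBS at day 8 for 27 small nucleolar RNA genes (vertical) against that of the gene that contains each (horizontal), with a dashed line where both are equal. Of the 27 points 24 lie above the line, and the host changes stay between -0.39 and 0.31.

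On day 4 the hosts had a median change of -0.14, with 5 of 24 higher, and 1 was called. This was Eef1b2, which fell by 0.75 on the log2 scale (limma adjusted p = 0.0315), while Snora41 within it had a change of -0.14 (limma adjusted p = 0.753). At that time the 59 cytosolic ribosomal protein genes had a median change of -0.31, and by limma Rpl3l, a form enriched in muscle, rose (0.62, adjusted p = 0.0424) and Rps19 fell (-0.59, adjusted p = 0.0297). Their median at day 8 was 0.02.

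By the kind of host, at day 8, all 20 members within genes named Rpl, Rps or Rpsa were higher with AREG (median 0.48). All 15 members within long noncoding genes were higher too (median 0.64). Of the 17 within other protein genes 11 were (median 0.17). The members that were lower all lay in the last class (Hspa8, Rack1, Haus6, Kansl2 and Eef2). Rack1 was in that class by its symbol, though it encodes a protein of the small ribosomal subunit. Its members Snord95 (-0.15) and Snord96a (-0.36) were lower, so not every member within a gene for a ribosomal subunit protein was higher. This split was not tested.

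Members of 1 host had like changes in some pairs and unlike ones in others. At day 8, Snora73a and Snora73b of Snhg3, RNAs needed for cutting the ribosomal RNA precursor, had a change of 0.79 each. Snora16a and Snora44 of Snhg12 had changes of 0.89 and 0.82. Snord95 and Snord96a of Rack1 had changes of -0.15 and -0.36. In each of these 3 pairs both members had the same direction. Snord73a and Snord73b of Rps3a1 had changes of 0.13 and 0.83, with mean levels of 5.19 and 8.71. Snord33 and Snord35a of Rpl13a had 0.60 and 0.18, Snord15a and Snord15b of Rps3 had 0.52 and 0.90, and Snora75 and Snord82 of Ncl had 0.22 and 0.57. In the Rps3a1, Rps3 and Ncl pairs the member with the weaker signal had the smaller change, whereas in Rpl13a it was the member with the stronger signal. Of the promoters printed above, those with a pyrimidine run belong to pairs that were higher (2410006H16Rik, Snhg12 and Rpl13a) as well as to the pair that was lower (Rack1).

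Other small structured RNAs that carry none of these names were also higher with AREG at day 8. Of 20 listed, 9 were measured: Rmrp (the RNA of the enzyme that cuts the ribosomal RNA precursor), Rn7sk, Rny1, Rny3, Vaultrc5, Terc (the telomerase RNA), Rnu12, Rnu7 and Rnu3a. Rnu3a is the U3 RNA, a box C/D RNA under another name, so the list is not wholly apart from the family. All 9 were higher with AREG at day 8, with a median of 0.69 and a range of 0.05 to 0.92, and none passed the test (limma), with 2 at an unadjusted p under 0.05. Rny1 had a change of 0.92, Rmrp one of 0.76 and Vaultrc5 one of 0.73. On day 4, 3 of 9 were higher (median -0.11). Their array medians were low and high on the same day 8 PBS arrays as those of the small nucleolar RNAs (-0.46, 0.54 and -0.07 for replicates 1, 2 and 3), against 0.88, 0.45 and 0.10 on the day 8 AREG arrays.

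**Figure D5:**
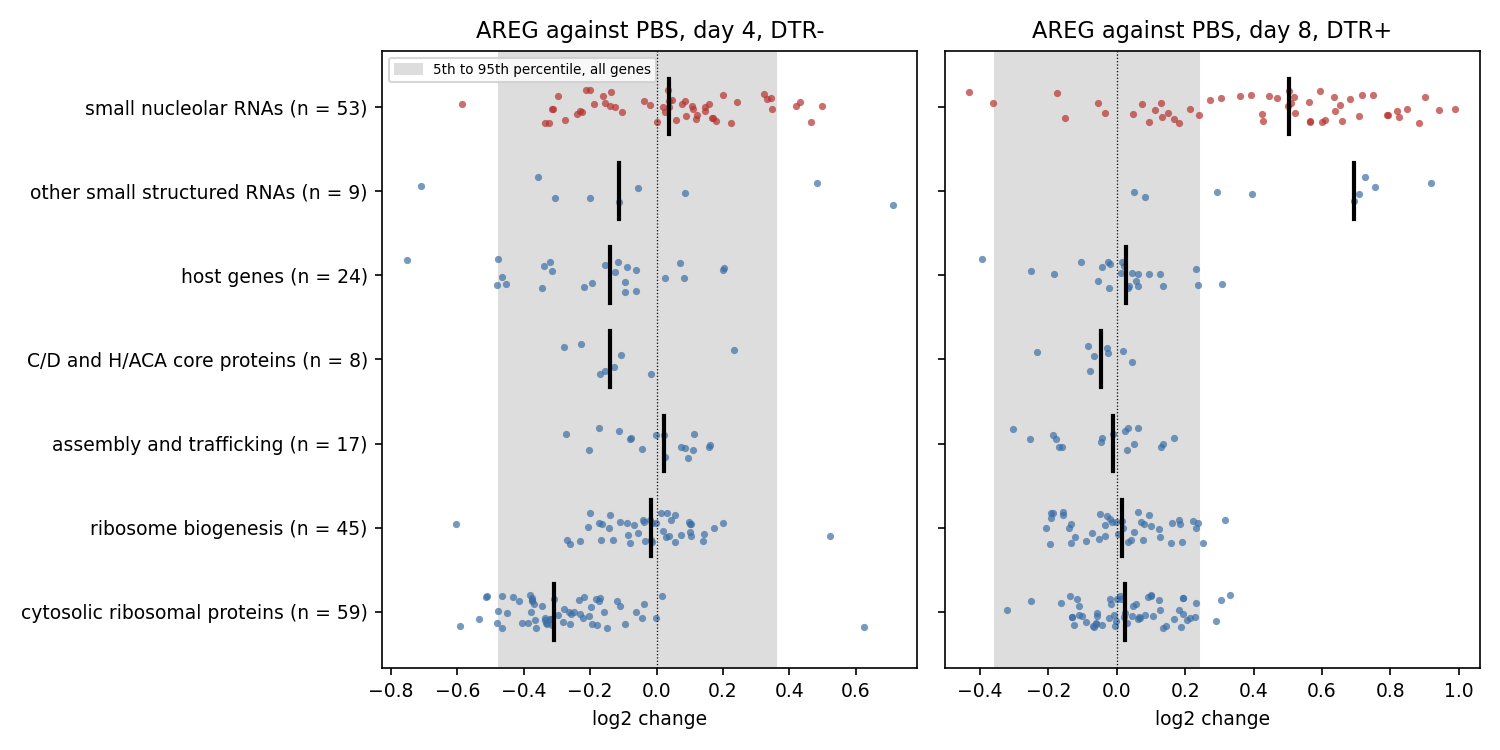
Log2 change of AREG against PBS on day 4 (left) and day 8 (right) for single genes of 7 classes, with a bar at each class median and the range from the 5th to the 95th percentile of all genes in grey. At day 8, 37 of 53 small nucleolar RNAs lie above the 95th percentile (0.24), while the host, core protein, assembly, biogenesis and ribosomal protein classes have medians between -0.07 and 0.03.

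The genes of proteins that work with these RNAs had medians near 0 at day 8. The 4 core proteins of the box C/D particle (Fbl, the methyltransferase, with Nop56, Nop58 and Snu13) had a median change of -0.03 at day 8 and -0.16 at day 4. The 4 of the box H/ACA particle (Dkc1, the pseudouridine synthase, with Gar1, Nhp2 and Nop10) had -0.07 and -0.06. Of 17 measured assembly and trafficking factors 8 were higher at day 8 (median -0.01), and of 45 ribosome biogenesis genes 24 were (median 0.02). No gene of these 4 lists was called at day 8 by limma, with 1 at an unadjusted p under 0.05, and Rcl1 of the ribosome biogenesis list rose on day 4 (0.52, limma adjusted p = 0.0357). The 288 microRNA genes, also short, had a median of 0.05 at day 8. Their signals were dimmer, with 57 of 288 at or above the median gene level, against 31 of 53 small nucleolar RNAs. The part of signal level in this contrast was not tested.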

How the data were processed

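RNA came from flash-frozen whole TA muscle by TRIzol extraction, per the labels. Affymetrix Power Tools and the RMA method (background correction, quantile normalization, summary of probes) are named in the submitters' processing notes. Not given in the sources used here were their versions and the genome build. The authors deposited intensity on a linear scale (4.65 to 21512, 0 missing). RMA can compress differences of dim genes. Array depth has no count, so the number of arrays limits the precision.

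For the fits, log2 of each value was used, without pseudocount or filter. Of 24922 clusters, 21425 had 1 symbol, and for 921 genes with several the cluster with the highest mean was kept, which left 19752 genes. One linear model with 4 group means was fitted with limma 3.58.1 (lmFit and eBayes, R 4.3.3), with p-values adjusted over all genes by Benjamini-Hochberg and a threshold of 0.05. The script was tested on simulated data. The 6 contrasts were AREG against PBS in each setting, day 8 against day 4 in each treatment, and the mean and the difference of the AREG effects. AREG contrasts of a day share their arrays with the day contrasts.

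Named members were those called, the 8 with the smallest p in each 2-group comparison, the 6 highest and 3 lowest in level, and 4 named in an earlier account (Snora3, Snora31, Snora74a and Snord33). Other members are named as pairs of 1 host or after their values were seen. From the other lists, genes called or with the smallest p were named. Members, lists and tests were chosen with earlier results of these data known. Deviations of arrays with the same replicate number correlated at day 4 (0.558, 0.201 and 0.511) and not at day 8 (-0.198, 0.123 and -0.003). Day 4 arrays with different numbers had correlations of -0.486 to 0.270. The highest of these, AREG replicate 2 with PBS replicate 3, was above the 0.201 of replicate 2 with its own number. The day 4 AREG and PBS arrays with replicate number 1 were also those with the narrower distributions, which alone can make their deviations correlate. This check therefore cannot settle whether the numbers pair samples. The main fit used no pairing. Host genes are those of the RefSeq table of GRCm38.p6 whose span holds the member. All 53 members matched that table, and 32 of 43 hosts had a promoter entry. Member sequences were not used here.

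Alternatives were the replicate block, only the compared arrays, trend and robust variance, array weights, repeated quantile normalization, median centring, a pseudocount of 32, only genes at or above the median level, the mean of a gene's clusters, and leaving out each array.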

Additional observations from a re-analysis of the deposited data

How the results depend on the processing

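With 3 arrays per group, calls of single members depended on the weighting and on single arrays, and so did the direction of the median at day 4 and between the PBS groups. Array quality weights called 15 members at day 4 (14 higher), 21 at day 8, 22 between the AREG groups (18 higher), 27 for the mean effect (25 higher) and 4 for the difference, beside 5305, 1192, 6676, 4902 and 2232 of all 19752 genes, took the median change between the AREG groups to 0.21, and turned Snord37 (-0.35) and Snord58b (-0.29) negative there. The median of all genes moved by less than 0.1 under these weights. The replicate block called 2 members between the AREG groups and 5 for the mean effect (189 and 1104 of all genes), and changed the count in no other comparison. Between the AREG groups its p-values leave out the spread between replicates, so that count is not a valid alternative call. Fitting only the compared arrays called 2 between the AREG groups (3.77%, beside 0.435% of all genes). Repeated quantile normalization called 1 at day 4 (1.89%, beside 4.21% of all genes). Keeping genes at or above the median level called 1 of 31 members for the mean effect (3.23%), beside 836 genes in all. The cause was not tested.

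Leaving out each array in turn, the number called was 0 to 1 at day 4, 0 at day 8, 0 to 1 between the PBS groups, 0 to 3 between the AREG groups, 0 to 14 for the mean effect and 0 for the difference. Of all genes, these fits called 0.0456% to 6.76% at day 4 and 0% to 0.00506% at day 8. They called 1.06% to 3.64% between the PBS groups and 0.4% to 2.32% between the AREG groups. For the mean effect it was 0.172% to 7.53%, and for the difference 0%. The 1 member at day 4 (1.89%) stood beside 6.76% of all genes. The median change ranged from -0.08 to 0.18 at day 4, 0.31 to 0.68 at day 8, -0.11 to 0.31 between the PBS groups, 0.30 to 0.65 between the AREG groups, 0.15 to 0.35 for the mean effect and 0.21 to 0.70 for the difference. The percentage of members higher ranged from 28.3 to 73.6, 79.2 to 88.7, 35.8 to 83, 86.8 to 96.2, 73.6 to 88.7 and 75.5 to 92.5 in the same order; its alternatives were chosen after seeing the data. The arrays that decided the ranges of the median change were day 8 PBS replicates 1 and 2 and day 4 AREG replicates 1 and 3. Other arrays also set ranges of the number called. The 1 member at day 4 was called without day 8 AREG replicate 3, and the 1 between the PBS groups without day 8 PBS replicate 3.

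Snord33 passed 20 of 21 alternatives (adjusted p 8.45e-05 to 0.0643 with limma), Snora62 16 of 19 (0.000416 to 0.0608) and Snord82 13 of 20 (0.00204 to 0.101). Those that Snord33 passed include the replicate block, whose p does not measure the spread between samples in that comparison. Over 27 named members and 6 comparisons, 3203 values kept their direction and side of the threshold, 69 passed it newly, 11 lost it, 9 moved past the spread and 2 reversed.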

Other observations

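Clusters that list a small nucleolar RNA beside another symbol were outside the rule, and 19 such clusters were on the arrays. At day 8, 7 of 19 were higher with AREG, against 47 of the 53 genes, with a median log2 change of -0.09. Between the AREG groups 16 of 19 were higher on day 8 (median 0.56). At day 8 the cluster of Snora24 and Snhg8 had a change of 1.02, that of Mir1291 and Snora34 one of 1.00 and that of Snord68 and Rpl13 one of 0.71. The differences were not tested, and these clusters were named after their values were seen.

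A set of 4 clusters of the imprinted Snord116 repeat (Snord116l2, Snord116l1 and Gm26504) had lower means with AREG in both settings, with changes of -1.38, -1.38, -1.13 and -1.32 at day 4 and of -0.46, -0.46, -0.42 and -0.51 at day 8. They share their symbols, and their group means are close, so they are not independent of each other. The pair of clusters of Snord14d, Snord14c and Hspa8 had a change of -0.48 each at day 8 and of 0.94 each between the PBS groups, beside -0.43 and 0.85 for Snord14e, which lies in the same host. The second clusters of Snora3, Snora21 and Snord58b had day 8 changes of 1.00, 0.36 and 0.32.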
